A study of Homo sapiens with 6 samples.

Results

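Divergent transcripts are long noncoding RNAs (lncRNAs) that start beside the promoter of a protein-coding gene and run away from it on the opposite strand, and carry that gene's symbol with the ending -DT. Of 60607 genes in the quantification, 184 had such a symbol, and the 76 with at least 60 estimated read counts summed over all 6 libraries are described here. The other 108 lay below that sum, 17 of them with no counts at all. All 76 had a coding partner of the same name. The genes were chosen by these summed counts, whatever group the reads came from, so their levels are given as a description. Just inside the limit were CEP83-DT (61.3 counts), APCDD1L-DT (61.9), MIOS-DT (63.5) and ITGB1-DT (64.0). FAM111A-DT (59.6), APP-DT (59.5), CD2BP2-DT (57.0) and MANEA-DT (55.0) lay just outside.

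The libraries came from PLC/PRF/5, an established line of human hepatocellular carcinoma, 48 h after transfection. In 3 libraries the cells had received siRNAs against SLU7 (siSlu7, here knockdown), a splicing factor of the second step of pre-mRNA splicing, and in 3 the irrelevant siRNA siGL2 (here control). Both groups were transfected cells of a single line, and polyA RNA was sequenced. The labels speak of triplicates but do not say whether these were separate cultures, so p-values measure the spread between these libraries, which may be technical.

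Most active mammalian promoters start RNA polymerase II in both directions. The upstream RNA is usually short-lived, because early polyadenylation signals end it and the nuclear exosome, brought by adaptor complexes, degrades it, whereas U1 snRNP bound to splice sites on the coding side protects the mRNA from early ending. A minority of upstream RNAs are spliced, polyadenylated and stable enough to be annotated as -DT genes, and these are the ones a polyA library can capture.

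Total estimated counts were between 7736584 and 8693977 in the controls and between 5191452 and 6315740 in the knockdowns. SLU7 itself was at 20.7, 17.0 and 18.3 CPM (read counts scaled to a common library size by TMM) in the controls and at 9.31, 8.23 and 10.4 in the knockdowns (log2 fold change -1.0, SE 0.18, edgeR adjusted p = 0.0139). The groups did not overlap. In the authors' TPM values, which divide by transcript length and by the rest of the library, SLU7 was at 4.69, 3.46 and 5.96 in the controls and at 4.12, 4.34 and 4.67 in the knockdowns, and the groups overlapped. Control 1 and knockdown 3 stood apart from their groups and deviated together (r = 0.44 between their deviations from the group means, across genes, which are not independent). Among the 75 divergent transcripts tested, control 1 was the highest control and knockdown 3 the highest knockdown at the same time for 18 (24.0%), against 22.7% of all genes tested. Results that rest on them are given with and without these 2 libraries. Without them 2 libraries are left in each group. The 2 were picked from these same values, so a smaller p without them is a description and no added support. Of the 9 hepatocyte and liver cancer markers none was at 0 in all libraries. The lipoprotein gene APOB was high in every library. HNF4A was at 164, 224 and 180 CPM in the controls and at 123, 142 and 138 in the knockdowns, without overlap. SERPINA1 was at 13630 CPM in control 1 and 10270 in knockdown 3, against 4032 to 4957 in the others. ALB stood at 20.8 to 25.6 CPM, while TTR (1.2 to 5.19 CPM) and AFP (3 to 9 counts per library) were low. The 4 immune markers summed to 48.3 to 66.0 CPM in the controls and 47.7 to 53.4 in the knockdowns, mostly from LYZ (27.3 to 43.3 CPM) and CD68. PTPRC was at 0.374 to 0.507 CPM in the controls and at 1.48 to 2.01 in the knockdowns, and CD3E had 1 count in all 6 together. The part of these genes in the results was not tested.

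Promoter windows in RefSeq (GRCh38.p14) were found for 57 of the divergent transcripts and 65 of the partners, and for both members of 54 pairs. In 35 of these pairs the divergent start lay 0 to 250 bases before the coding start, and the median distance was 183.5 bases. The windows below belong to some of the divergent transcripts or partners on which the results turn. DDR1-DT and ZKSCAN2-DT are not among them, as windows for both genes of the pair were not found. Each gives the 250 bases before the coding start on the coding strand. Capitals run from the start of the divergent transcript to the last base before the coding start, so the divergent RNA is read leftwards from the first capital on the other strand.
FRG1 (chr4:189940622-189940871, plus strand): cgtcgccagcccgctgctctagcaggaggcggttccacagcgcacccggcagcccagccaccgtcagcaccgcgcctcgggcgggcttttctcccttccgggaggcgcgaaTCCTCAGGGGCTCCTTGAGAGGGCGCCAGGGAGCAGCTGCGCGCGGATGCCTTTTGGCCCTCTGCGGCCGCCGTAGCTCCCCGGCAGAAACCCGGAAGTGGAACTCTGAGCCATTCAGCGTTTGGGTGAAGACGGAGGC
ZFAND2A (chr7:1160197-1160446, minus strand): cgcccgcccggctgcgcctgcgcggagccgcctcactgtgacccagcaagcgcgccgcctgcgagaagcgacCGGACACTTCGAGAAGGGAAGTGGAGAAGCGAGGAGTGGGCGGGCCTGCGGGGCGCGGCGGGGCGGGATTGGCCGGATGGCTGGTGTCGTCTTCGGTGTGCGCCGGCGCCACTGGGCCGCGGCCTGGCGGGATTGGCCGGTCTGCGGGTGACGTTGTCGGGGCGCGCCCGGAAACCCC
INSIG1 (chr7:155297628-155297877, plus strand): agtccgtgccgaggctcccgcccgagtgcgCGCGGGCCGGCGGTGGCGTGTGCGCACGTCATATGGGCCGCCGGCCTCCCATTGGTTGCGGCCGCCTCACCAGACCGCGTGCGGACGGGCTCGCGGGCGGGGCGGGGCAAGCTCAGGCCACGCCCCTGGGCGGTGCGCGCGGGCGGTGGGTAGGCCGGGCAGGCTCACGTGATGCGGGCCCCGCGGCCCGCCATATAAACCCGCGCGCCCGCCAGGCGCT
IL10RB (chr21:33266117-33266366, plus strand): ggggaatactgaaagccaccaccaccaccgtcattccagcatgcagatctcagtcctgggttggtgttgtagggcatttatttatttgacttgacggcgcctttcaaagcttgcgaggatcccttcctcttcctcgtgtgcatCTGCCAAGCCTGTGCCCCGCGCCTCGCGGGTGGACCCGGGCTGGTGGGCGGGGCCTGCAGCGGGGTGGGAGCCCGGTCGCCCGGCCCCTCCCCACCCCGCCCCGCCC
NUP50 (chr22:45163675-45163924, plus strand): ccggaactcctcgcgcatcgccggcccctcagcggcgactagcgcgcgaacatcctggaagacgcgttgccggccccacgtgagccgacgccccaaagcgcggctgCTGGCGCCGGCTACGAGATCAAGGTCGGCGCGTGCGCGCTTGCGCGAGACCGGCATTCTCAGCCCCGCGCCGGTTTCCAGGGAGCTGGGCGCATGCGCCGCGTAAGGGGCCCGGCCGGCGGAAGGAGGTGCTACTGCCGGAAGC

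The capitals span 139 bases at FRG1, 178 at ZFAND2A, 220 at INSIG1, 107 at IL10RB and 144 at NUP50. The windows were rich in G and C, from 65.2% at IL10RB to 78.4% at INSIG1. Motifs were searched on both strands. For the TATA box, spelled TATAAA, the INSIG1 window held 1 match. It also held 5 matches to GGGCGG, the box bound by SP1. The FRG1 window held 2 matches to CCGGAAG, the core bound by ETS factors, and NUP50 held 1 to the NRF1 palindrome of 10 bases. Over the 54 partner windows of 300 bases (250 before to 50 after the start), GGGCGG occurred in 75.9%, CCAAT in 50.0%, CCGGAAG in 27.8%, the NRF1 palindrome in 5.56% and TATAAA in 7.41%. The corresponding shares over all 35116 windows were 45.0%, 34.6%, 10.3%, 1.24% and 11.5%. The polyadenylation signal AATAAA was in 5.56% of partner windows against 17.4% of all, and GGTAAG, which resembles a 5' splice site, in 11.1% against 8.02%. CG dinucleotides had a median of 29.5 per partner window against 14 over all windows. The partner windows belong to pairs chosen by counts of the divergent transcript, whereas all windows were taken whatever the level or type of the gene. The shares were thus not matched for expression. A match is a description of letters and not a bound site.

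By GENCODE 29 (GRCh38), which held 75 of the 76, all 75 lay on the strand opposite to their partner. The nearest annotated starts of the pair were at most 200 bases apart in 54 and at most 1000 in 74, with a median of 138 bases. MRPL20-DT had the widest distance, 1783 bases. In 8 pairs the starts crossed, so that the first exons can overlap, with MMADHC-DT crossing furthest (-406 bases). Among the transcripts that GENCODE 29 held, the most abundant was spliced in 56 and had a single exon in 19. The quantification also held other transcripts, which could carry most of the counts. For AFDN-DT, a transcript of 4011 bases had 49.6 of 52 counts in control 1, while the one taken from GENCODE 29 had 182 bases. Exon number and GC content can therefore describe minor transcripts. Exons of 20 divergent transcripts overlapped exons of their own partner, and exons of 28 overlapped some gene on the other strand. Whether the quantification used strand is not given in the sources used here, so reads of such overlaps could have been assigned to either gene. Exons of 5 overlapped a gene on their own strand, where strand would not separate the reads. Counting both strands, 45 of the 75 overlapped no exon of another gene.

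Divergent transcripts were low compared with their partners. Their mean level over the 6 libraries had a median of 5.17 CPM (range 1.44 to 96.2), and 64 of the 76 were under 10 CPM. Per length, the median was 1.46 TPM against 8.74 TPM for the partners, and a divergent transcript had in the median 19.0% of its partner's TPM. The order was reversed in 11 pairs. RAB30-DT stood at 45.6 TPM against 2.53 TPM for RAB30, a small GTPase of the Golgi, and FBXO30-DT at 8.50 against 1.67 for the ubiquitin ligase subunit FBXO30. GMDS-DT was at 10.9 TPM against 6.35 for GMDS, the first enzyme of GDP-fucose synthesis.

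After SLU7 knockdown 4 of the 75 divergent transcripts tested changed (5.33%), 2 rising and 2 falling. Of all 17109 genes tested, 13.9% passed the same test (5.93% higher, 7.94% lower). The share of all genes was 13.9% with DESeq2's size factors, 8.23% with no filter on low counts, 13.7% with a stricter filter and 15.6% without structural RNA genes, and 4 or 5 divergent transcripts passed in each of these fits. With no filter DDR1-DT did not pass (adjusted p = 0.0559) and MMADHC-DT did, so that 1 was higher and 3 lower, and without structural RNA genes MMADHC-DT joined the 4. DDR1-DT and ZKSCAN2-DT rose about as far as SLU7 fell, and ZFAND2A-DT and FRG1-DT fell less far. In bulk RNA, fewer cells with a transcript and less of it per cell cannot be told apart. The test was edgeR's quasi-likelihood test with Benjamini-Hochberg adjustment over all genes, passed at an adjusted p under 0.05. At an unadjusted p under 0.05, 16 of 75 passed (21.3%), against 32% of all genes. APCDD1L-DT, at 1.79 CPM in the controls and 1.09 in the knockdowns, did not reach the count filter and was not tested.

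DDR1-DT (ENSG00000237775.1, chr6:30866982-30875918, minus strand, 2 exons, no exon overlap with another gene) starts beside DDR1, a receptor tyrosine kinase for collagen. It was at 3.87, 2.66 and 3.68 CPM in the controls and at 6.72, 7.13 and 6.12 in the knockdowns. Every knockdown library was above every control. The log2 fold change was 0.96 (SE 0.25, edgeR adjusted p = 0.0383). The level is low, with 20 to 44 counts per library.

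DDR1 was lower on the CPM scale. It was at 16.6, 29.5 and 29.3 CPM in the controls and at 13.4, 13.5 and 13.5 in the knockdowns. The knockdown libraries lay close together and below all controls, of which control 1 was the lowest. The log2 fold change was -0.89 (SE 0.24, edgeR adjusted p = 0.0391), and -1.12 without control 1 and knockdown 3. This was the single pair of which both genes passed the test. The fall of DDR1 was not found in every scale. In TPM it was at 5.48, 9.51 and 12.0 in the controls and at 9.97, 6.61 and 10.0 in the knockdowns, with overlap, and by limma on log2(TPM + 1) the difference was 0.019 (adjusted p = 0.97). With transcript length offsets neither DDR1 (-0.60, edgeR adjusted p = 0.28) nor DDR1-DT (0.91, adjusted p = 0.0958) passed.

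ZKSCAN2-DT (ENSG00000274925.1, chr16:25257952-25261066, plus strand) is a single-exon RNA that starts 21 bases from ZKSCAN2, a zinc finger gene with KRAB and SCAN domains. It was at 5.74, 3.06 and 6.21 CPM in the controls and at 11.4, 8.05 and 11.9 in the knockdowns. The groups did not overlap. The log2 fold change was 1.06 (SE 0.30, edgeR adjusted p = 0.0479). ZKSCAN2 stood at 9.23, 11.0 and 11.9 CPM in the controls and at 13.3, 11.5 and 10.9 in the knockdowns, with overlapping groups (0.15, SE 0.19, adjusted p = 0.62). Its ratio to ZKSCAN2 within each library was higher in all 3 knockdowns, by 0.95 on the log2 scale.

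ZFAND2A-DT (ENSG00000229043.3, chr7:1160374-1165267, plus strand) lies 155 bases from ZFAND2A, an AN1-type zinc finger gene induced by arsenite stress. It was at 17.1, 20.2 and 20.0 CPM in the controls and at 12.4, 9.15 and 11.9 in the knockdowns. All knockdowns were below all controls (log2 fold change -0.78, SE 0.19, edgeR adjusted p = 0.0295). ZFAND2A had control values of 18.6, 19.1 and 18.5 CPM and knockdown values of 10.4, 14.6 and 12.8, also without overlap. In TPM ZFAND2A overlapped between the groups (16.4, 10.4 and 15.6 in the controls against 9.76, 11.2 and 13.6). Its log2 fold change was -0.58 (SE 0.18) with an edgeR adjusted p of 0.0656. Without control 1 and knockdown 3 it was -0.60 (adjusted p = 0.0472), beside -0.89 for ZFAND2A-DT. Exons of the pair overlap by 111 bases.

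FRG1-DT (ENSG00000245685.7, chr4:189780336-189940271, minus strand) is among the more abundant members. It was at 45.9, 41.2 and 42.7 CPM in the controls and at 27.9, 28.5 and 30.6 in the knockdowns. The spread within each group was small beside the gap between them (log2 fold change -0.58, SE 0.14, edgeR adjusted p = 0.0300). FRG1, a gene of the facioscapulohumeral dystrophy region whose protein associates with RNA, was at 33.0, 9.57 and 11.9 CPM in the controls and at 14.2, 11.3 and 23.2 in the knockdowns. Control 1 and knockdown 3 were the high libraries, and the log2 fold change of -0.17 became 0.26 without them. FRG1 has close copies elsewhere in the genome, so its reads and those of FRG1-DT are uncertain. The distance between starts was 517 bases in GENCODE 29 and 139 in RefSeq. In log2(TPM + 1), FRG1-DT had a mean difference of -0.00012 (adjusted p = 0.9999 by limma), and the median of all genes was shifted by 0.35 on that scale.

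**Figure D1:**
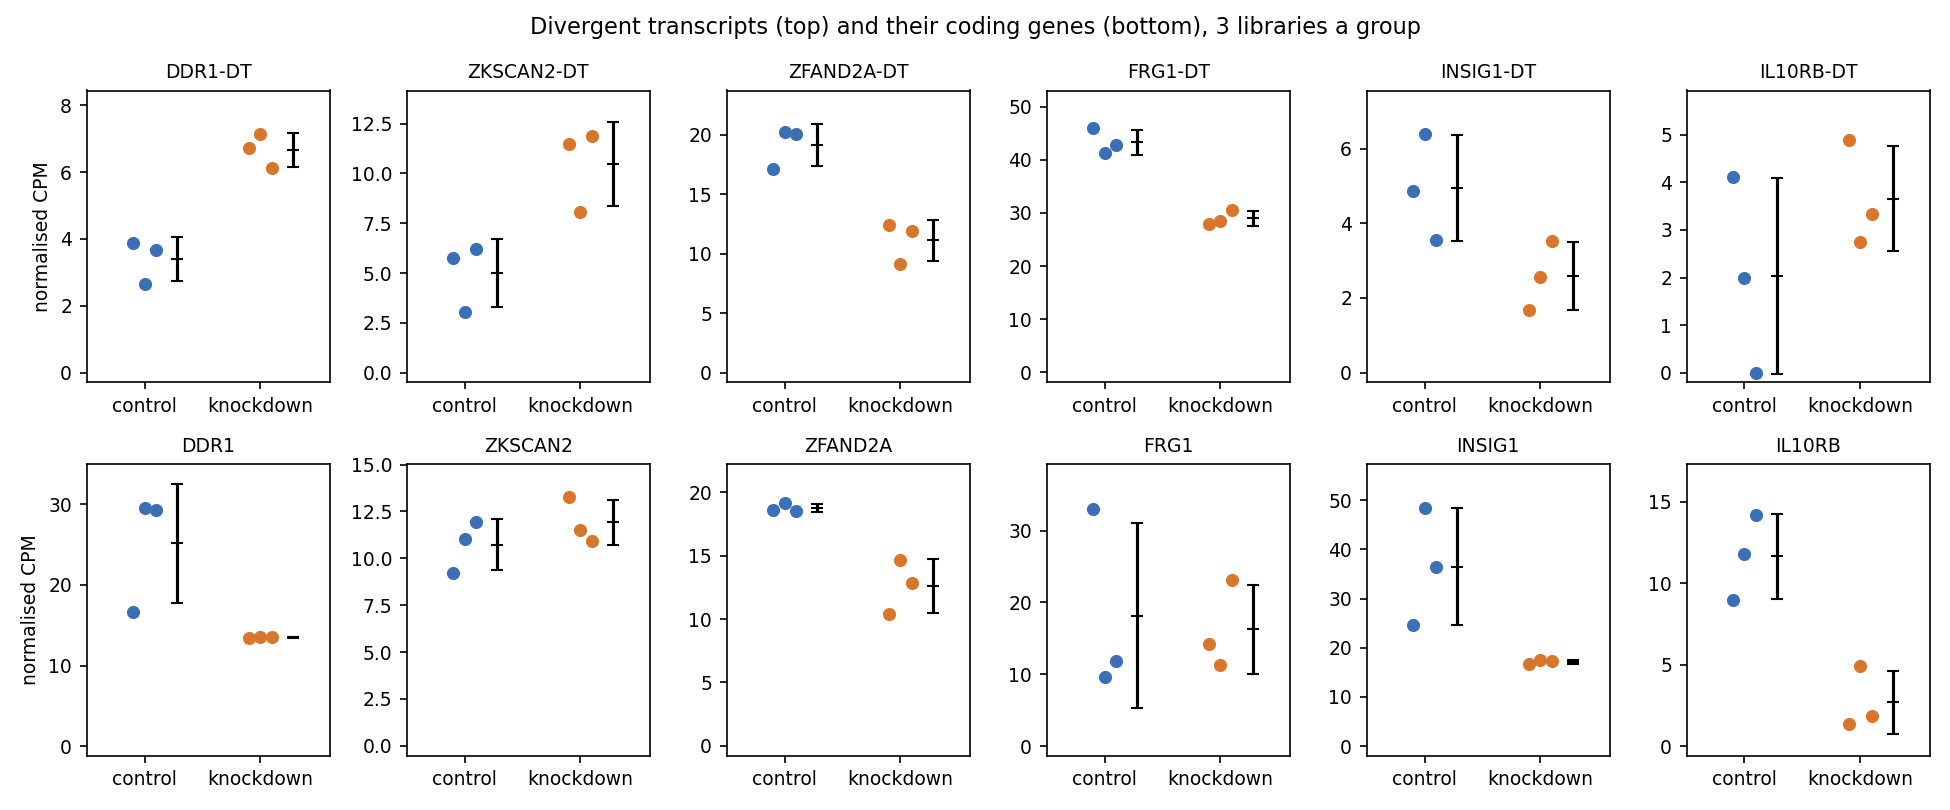
Normalised CPM of 6 divergent transcripts (top row) and of their coding genes (bottom row) in the 3 control and 3 knockdown libraries. Points are libraries and bars the mean ± SD of each group. DDR1-DT lies higher and DDR1 lower after knockdown on this scale (in TPM the DDR1 groups overlap), and IL10RB-DT has a control library at 0.

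Leaving out libraries moved the count of divergent transcripts that passed. Without control 1 and knockdown 3, 7 of 74 passed (9.46%), against 29.8% of all genes. These were the 4 above with RAB30-DT and C2orf49-DT higher and INSIG1-DT lower. Without control 1 alone, 6 passed (25.3% of all genes). None passed when control 2, control 3, knockdown 1, knockdown 2 or knockdown 3 was left out (edgeR, with 7 to 12 at an unadjusted p under 0.05), and of all genes 2.61%, 3.58%, 1.81%, 0% and 5.64% passed in those fits. Where a single library was left out the log2 fold changes of the 4 kept their sign, from 0.81 to 1.05 for DDR1-DT, 0.80 to 1.23 for ZKSCAN2-DT, -0.87 to -0.65 for ZFAND2A-DT and -0.62 to -0.55 for FRG1-DT. Without control 1 and knockdown 3 together, DDR1-DT was at 1.12 and ZFAND2A-DT at -0.89. DESeq2 called 3 of the 4 (16.8% of all genes), leaving DDR1-DT at an adjusted p of 0.0553. With transcript length offsets ZFAND2A-DT alone passed (5.65% of all genes), with offsets for GC content and length ZFAND2A-DT and FRG1-DT (10.6%), and with limma on log2(TPM + 1) 8, all higher (18.3%).

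The median log2 fold change of the 75 was -0.029 (quartiles -0.34 and 0.28, range -1.28 to 1.06), close to -0.0068 for all genes tested (quartiles -0.42 and 0.39). In sign, 36 were positive and 39 negative. Control and knockdown libraries did not overlap for 14 of the 75 (18.7%), 7 in each direction, against 36.6% of all genes. Those past no test but without overlap included RABGAP1L-DT (0.67), MAGEA6-DT (0.95), GPR176-DT (0.87) and SPAG16-DT (0.82) on the higher side and MMADHC-DT (-1.18), INSIG1-DT (-0.94), LGALSL-DT (-0.88) and NFE2L1-DT (-0.65) on the lower. MMADHC-DT came nearest to the threshold, with an edgeR adjusted p of 0.0529. Of its 1022 exonic bases, 560 overlap exons of its partner, so its level is uncertain. Summed over all 76, the divergent transcripts took 714.5, 574.2 and 600.9 CPM in control libraries against 616.4, 627.5 and 734.5 in knockdown libraries, and control 1 and knockdown 3 were the highest of their groups.

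**Figure D2:**
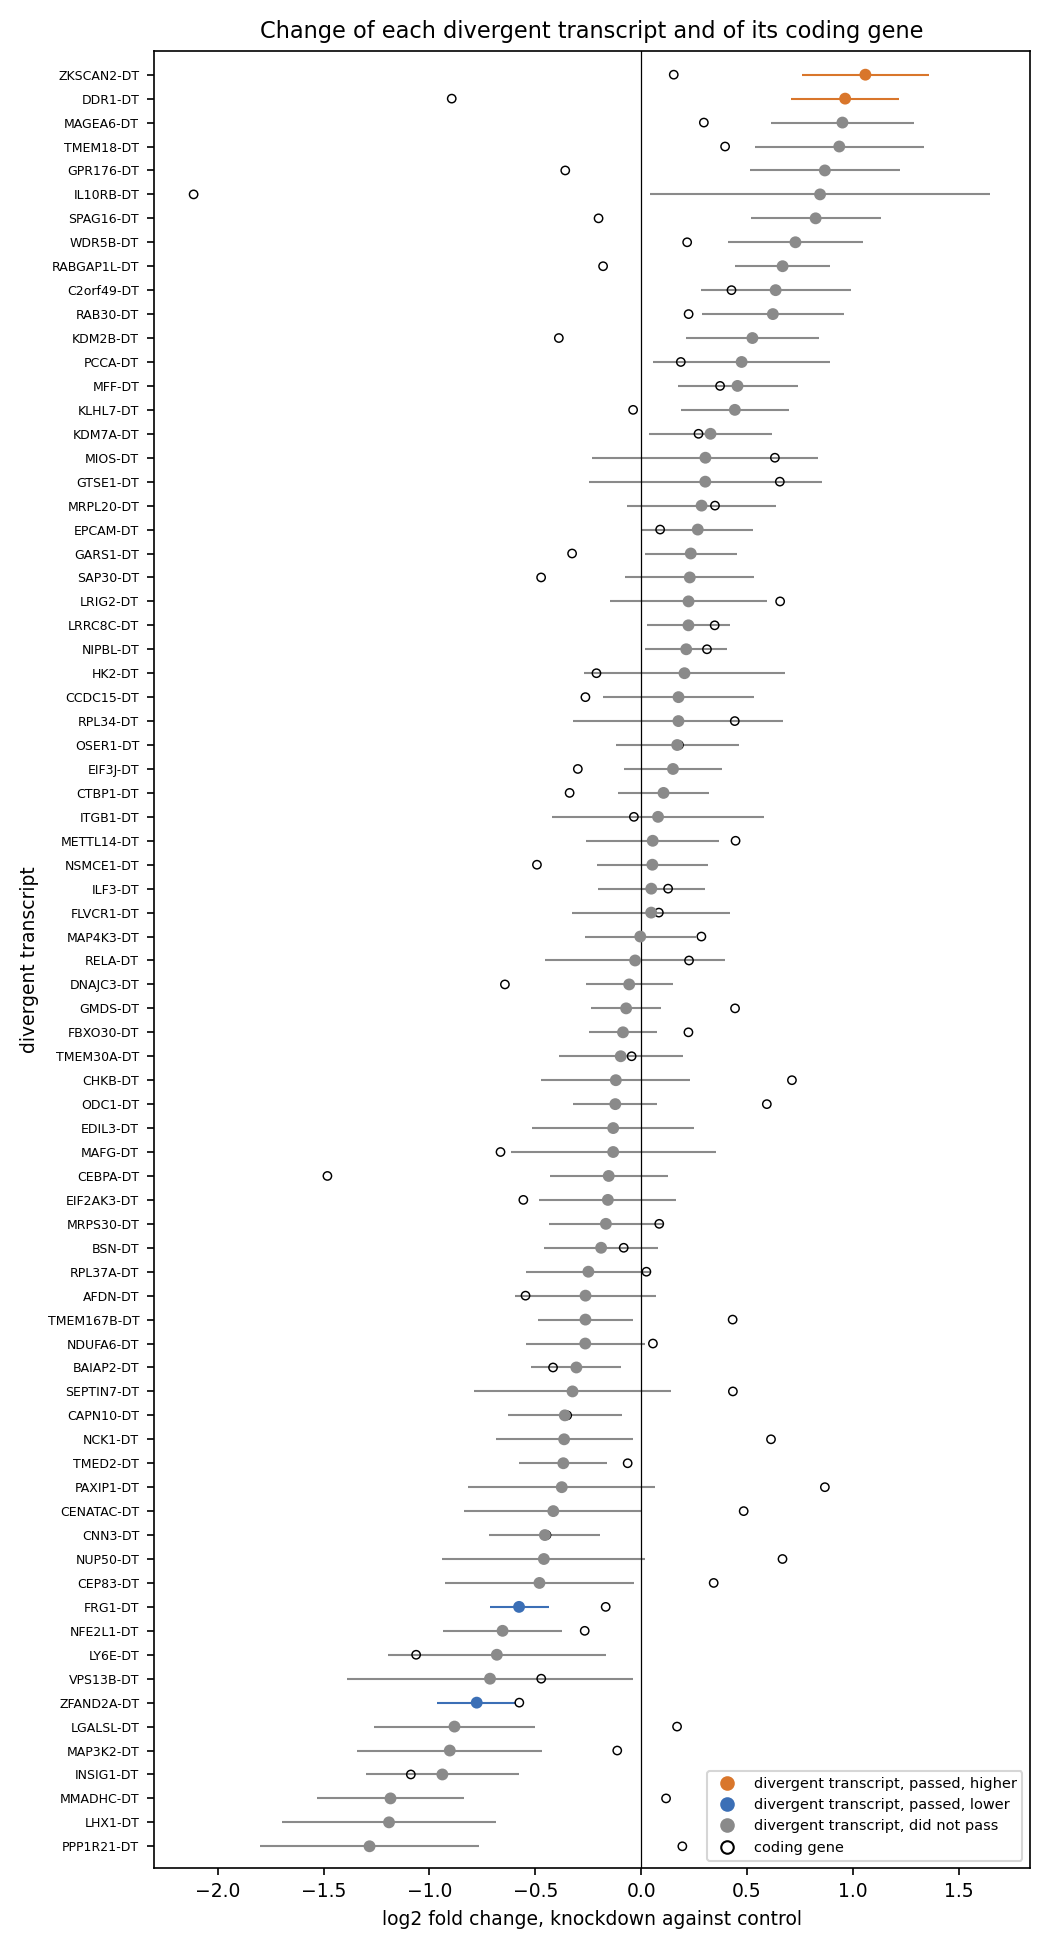
Log2 fold change, knockdown against control, of each of the 75 divergent transcripts tested (filled points, bar ± SE) in order, with the coding partner on the same row (open circles). Filled orange and blue points passed the test. The open circles are spread on both sides of 0 along the whole order.

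Among the 8 most abundant divergent transcripts, FRG1-DT and ZFAND2A-DT changed and the other 6 did not pass. GARS1-DT, named after the glycyl-tRNA synthetase gene GARS1, was at 113, 72.3 and 79.8 CPM in the controls and at 83.8, 104 and 125 in the knockdowns (0.23, adjusted p = 0.50). The groups overlapped, with control 1 above 2 of the knockdowns. GARS1 was at 316, 229 and 208 CPM against 165, 214 and 221 (-0.33, adjusted p = 0.32). Within each library the ratio of GARS1-DT to GARS1 separated the groups, by 0.56 on the log2 scale.

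RAB30-DT was at 88.7, 43.2 and 51.2 CPM in the controls and at 72.1, 70.4 and 139.6 in the knockdowns. Control 1 and knockdown 3 were the high libraries of each group. Its log2 fold change was 0.62 (SE 0.34, edgeR adjusted p = 0.24) over all 6 and 0.60 (SE 0.13, adjusted p = 0.00844) without those 2. RAB30 stood at 5.24 ± 0.29 CPM in the controls and 6.15 ± 0.97 in the knockdowns (SD, n = 3, edgeR adjusted p = 0.54). The excess of RAB30-DT in control 1 and knockdown 3 sat in the transcript RAB30-DT-209, with 357.3 and 451.8 estimated counts there and 31.0 to 107.1 in the other 4 libraries.

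C2orf49-DT also had control 1 and knockdown 3 as the highest of their groups, at 19.1, 6.51 and 10.0 CPM for the controls against 15.7, 17.2 and 22.6 for the knockdowns. Control 1 overlapped the knockdowns. The log2 fold change was 0.64 (edgeR adjusted p = 0.25), and 0.99 (adjusted p = 0.0106) without control 1 and knockdown 3. C2orf49, which encodes ashwin, a subunit of the tRNA ligase complex, was at 0.43 (adjusted p = 0.19) and 0.57 (adjusted p = 0.0435) in the same fits.

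GMDS-DT, ODC1-DT and FBXO30-DT stayed within their replicate spread. GMDS-DT was at 38.4 ± 4.94 CPM in the controls and 36.6 ± 4.64 in the knockdowns (SD, n = 3, edgeR adjusted p = 0.80). FBXO30-DT was at 16.3 ± 1.40 and 15.4 ± 0.53 CPM (adjusted p = 0.75). ODC1-DT stood at 20.4 ± 4.26 and 18.8 ± 1.73 CPM (adjusted p = 0.71), while its partner ODC1, the rate-limiting enzyme of polyamine synthesis, rose from 71.3 ± 3.03 to 107.5 ± 10.5 CPM (0.59 on the log2 scale, SE 0.14, edgeR adjusted p = 0.0298).

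CEBPA-DT and MAFG-DT lie beside transcription factor genes of liver biology, the hepatocyte factor CEBPA and the small Maf protein MAFG. CEBPA-DT was at 8.98, 8.64 and 4.95 CPM in the controls and at 5.95, 6.40 and 7.97 in the knockdowns, with overlap (-0.15, edgeR adjusted p = 0.74). CEBPA was at 13.3, 49.7 and 23.8 CPM against 12.4, 11.9 and 6.68, without overlap but with a wide spread in the controls (-1.48, SE 0.45, edgeR adjusted p = 0.0600). In TPM the CEBPA groups overlapped (2.48, 7.45 and 4.82 in the controls against 3.20, 2.92 and 1.68). MAFG-DT was at 2.07 ± 1.16 and 1.87 ± 0.37 CPM (SD, n = 3) and MAFG at 11.5 ± 2.56 and 7.24 ± 0.42 CPM (edgeR adjusted p = 0.88 and 0.0806). With offsets for GC content and length the log2 fold changes of CEBPA-DT and MAFG-DT had the other sign, 0.35 and 0.62.

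Of the 73 coding partners tested, 8 changed (11.0%), 5 rising and 3 falling, against 13.9% of all genes. NUP50 of the nuclear pore, PAXIP1 of the DNA damage response, the cell cycle gene GTSE1, the membrane protein gene LRIG2 and ODC1 rose, by log2 fold changes of 0.67, 0.87, 0.65, 0.66 and 0.59. IL10RB, INSIG1 and DDR1 fell by 2.11, 1.09 and 0.89 on the log2 scale. Apart from DDR1-DT, the divergent transcripts of these 8 did not pass the test. Groups of libraries did not overlap for 29 of the 73 partners (39.7%), near the 36.6% of all genes. The number of partners past the test moved with that of all genes. It was 2 with transcript length offsets (5.65% of all genes), 25 without control 1 and knockdown 3 (29.8%), 20 without control 1 alone (25.3%) and 3 without knockdown 3 (5.64%). Without control 2, control 3, knockdown 1 or knockdown 2 it was 0 (edgeR, 17 to 21 at an unadjusted p under 0.05), where 2.61%, 3.58%, 1.81% and 0% of all genes passed.

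INSIG1 encodes the membrane protein that holds the sterol sensor SCAP in the endoplasmic reticulum. INSIG1 was at 24.6, 48.4 and 36.5 CPM in the controls and at 16.6, 17.6 and 17.2 in the knockdowns. INSIG1-DT, a single-exon RNA, was at 4.86, 6.38 and 3.55 CPM in the controls and at 1.68, 2.56 and 3.52 in the knockdowns. Neither gene's groups overlapped in CPM, although for INSIG1-DT control 3 and knockdown 3 were nearly equal. In TPM the INSIG1-DT groups overlapped (1.50, 1.58 and 1.18 in the controls against 0.719, 1.05 and 1.48). INSIG1-DT had a log2 fold change of -0.94 (SE 0.36, edgeR adjusted p = 0.11), and -1.23 (adjusted p = 0.0468) without control 1 and knockdown 3. The corresponding values of INSIG1 were -1.09 (adjusted p = 0.0229) and -1.31 (adjusted p = 0.000729).

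IL10RB, the beta chain of the interleukin-10 receptor, was at 8.98, 11.8 and 14.2 CPM in the controls and at 1.37, 4.94 and 1.85 in the knockdowns. IL10RB-DT was at 4.12, 1.99 and 0 CPM in the controls and at 4.89, 2.74 and 3.34 in the knockdowns, and its groups overlapped. The single annotated transcript had 32.7, 14.7 and 0 estimated counts among controls against 31.5, 15.4 and 18.0 among knockdowns. Its log2 fold change was 0.84 with an SE of 0.80 (edgeR adjusted p = 0.51). Of its 2228 exonic bases, 1803 overlap exons of IFNAR2, an interferon receptor gene on the other strand, so its level is uncertain.

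NUP50 was at 80.9, 62.5 and 67.3 CPM in the controls and at 116, 114 and 105 in the knockdowns. NUP50-DT was at 3.49, 3.06 and 3.42 CPM against 3.97, 0.73 and 2.41, with overlap (-0.46, SE 0.48, edgeR adjusted p = 0.55). PAXIP1 was at 24.3, 26.1 and 27.8 CPM in the controls and at 50.1, 40.2 and 52.3 in the knockdowns. All knockdown libraries of both coding genes were above all controls. PAXIP1-DT was at 1.75, 3.32 and 3.55 CPM against 3.05, 2.38 and 1.11 (-0.38, SE 0.44, edgeR adjusted p = 0.60), and its groups overlapped.

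Across the 73 pairs with both genes tested, the divergent transcript and its partner had the same sign in 39 (53.4%) and opposite signs in 34. Both were positive in 21 and both negative in 18. The divergent transcript was positive and the partner negative in 15, and the reverse held in 19. Across these pairs, which share libraries and are not independent, Pearson's r was 0.028 and Spearman's rho 0.10. As a background, 915 other pairs of tested genes were taken, none of them a -DT gene. They lie on opposite strands, face away from each other without overlap and have their outer starts within 1000 bases. The divergent pairs were matched by name and include crossed starts and a wider distance, so the sets differ in this. Of the 915 pairs, 526 had the same sign (57.5%), with a rho of 0.23. The share was 58.4% for 555 pairs of coding genes and 55.0% for 320 pairs of a coding and a noncoding gene. These shares were not tested against each other. Over all 76 pairs the divergent transcripts had a median level of 5.17 CPM and their partners one of 21.8 CPM.

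**Figure D3:**
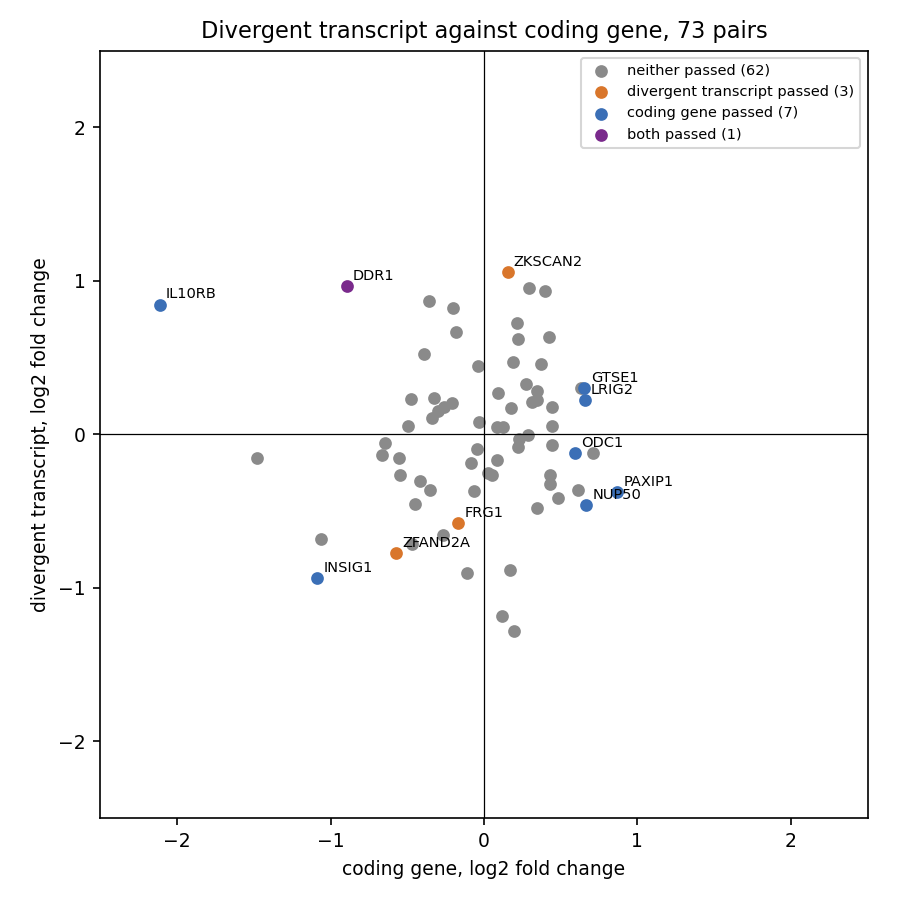
Log2 fold change of the divergent transcript (vertical) against that of its coding gene (horizontal) for 73 pairs, one point a pair, coloured by which of the genes passed the test. DDR1 is the single pair with both, in the quadrant where the divergent transcript is positive and the coding gene negative, and no trend is visible over the pairs (Pearson's r 0.028).

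The ratio of divergent to coding counts within a library needs no scaling between libraries. It is not corrected for transcript length, so it can differ from a ratio of TPM. It was taken as log2 with 0.5 added to each count. Of the 73 pairs, 20 had ratios that did not overlap between the groups (27.4%), 9 higher and 11 lower after knockdown, against 29.2% of the 915 other pairs. An exact two-sided permutation test of 3 against 3 libraries cannot give a p under 0.1, and each of the 20 had that value. The count was taken for both genes tested, so LHX1-DT is outside it.

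IL10RB-DT had the largest change in ratio. Its log2 ratios were -1.13, -2.57 and -7.82 for controls against 1.70, -0.78 and 0.87 for knockdowns, a mean difference of 4.43. Control 3, with no count for IL10RB-DT, was far below the others, and the value there rests on the added 0.5. For DDR1 the ratios were -2.08, -3.42 and -2.96 for controls against -0.99, -0.93 and -1.13 for knockdowns, a difference of 1.80. GPR176-DT, beside an orphan receptor gene, followed with 1.22. In TPM, the IL10RB ratios of control 1 (0.896 against 2.45) and knockdown 2 (0.816 against 2.3) were nearly equal. The DDR1 and GPR176 ratios did not overlap in TPM.

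On the lower side, NUP50-DT had ratios of -4.51, -4.35 and -4.29 for controls against -4.84, -7.08 and -5.40 for knockdowns (difference -1.39). MMADHC-DT, beside a gene of vitamin B12 trafficking, was at -1.68, -2.41 and -2.35 against -4.41, -3.15 and -2.78 (difference -1.30). Of the 1022 exonic bases of MMADHC-DT, 560 overlap exons of MMADHC on the other strand, so this ratio is uncertain. PAXIP1-DT was at -3.75, -2.93 and -2.96 against -3.97, -3.99 and -5.39 (difference -1.24). In the NUP50 and PAXIP1 pairs the coding gene rose while the divergent transcript did not pass. In TPM the NUP50 ratios overlapped, with control 1 (0.928 against 35.8) below knockdown 1 (1.57 against 47.5). Those of MMADHC and PAXIP1 did not overlap in TPM. MMADHC stood at 20.2 ± 3.31 and 21.8 ± 5.96 CPM (SD, n = 3, edgeR adjusted p = 0.77). LHX1-DT, beside a homeobox gene, had a ratio difference of -1.50, but LHX1 was not tested, with 3 to 6 counts in each library.

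**Figure D4:**
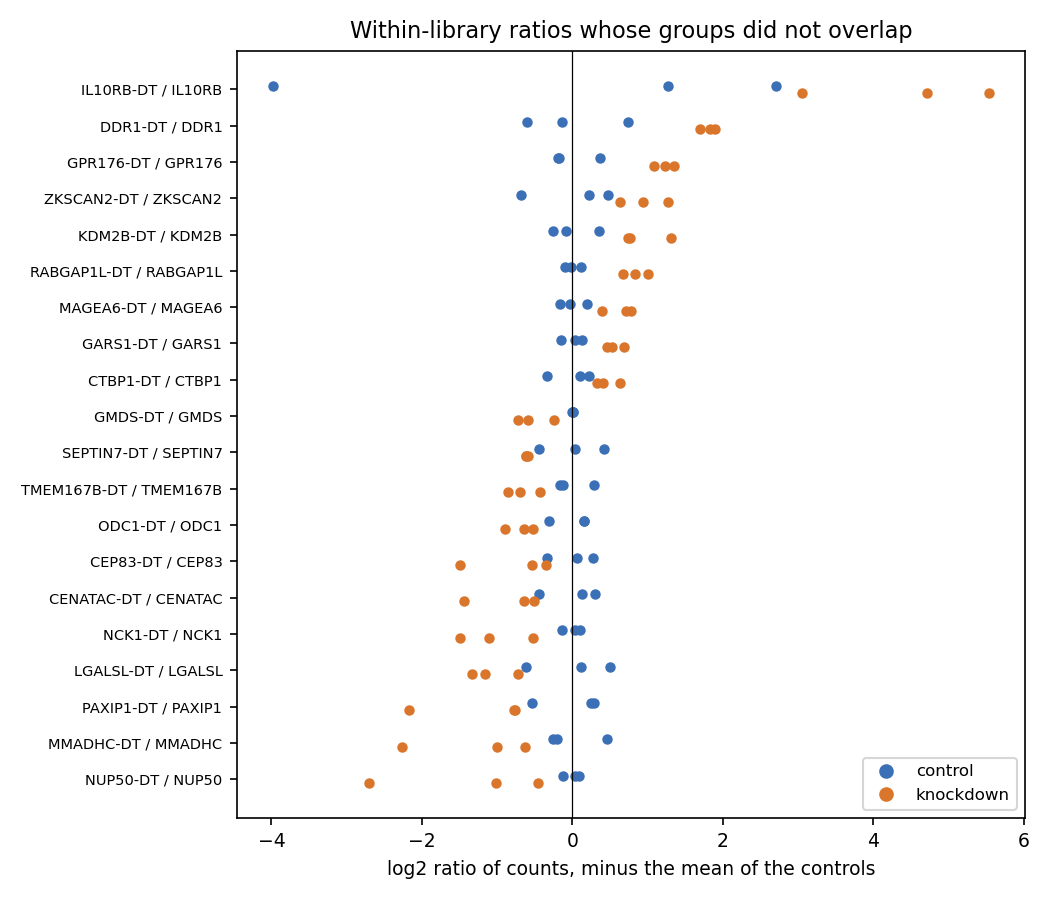
Log2 ratio of divergent to coding counts within each library, minus the mean of the 3 controls, for the 20 pairs whose control (blue) and knockdown (orange) libraries did not overlap. IL10RB-DT, with its control at -7.82 before centring, spans the widest range.

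Use of the transcripts within a divergent gene was tested next. Of 22 genes with at least 2 transcripts that could be tested (edgeR diffSpliceDGE, Simes p per gene), 0 passed and 1 had an unadjusted p under 0.05, whereas 257 of 8869 genes (2.90%) passed over the whole table. That gene was GMDS-DT (unadjusted p = 0.0337, adjusted p = 0.46, edgeR). Its transcript GMDS-DT-206 had 17.1, 15.6 and 11.8 estimated counts among controls against 0, 0 and 1.9 among knockdowns, while GMDS-DT-227, the most abundant, had 84.0, 85.5 and 68.3 against 82.0, 71.2 and 45.2. OSER1-DT and RABGAP1L-DT were next, at unadjusted p = 0.19 and 0.51 in the same edgeR test. Tested singly, 0 of 116 transcripts of divergent genes passed and 8 had an unadjusted p under 0.05 (6.9%), against 0 passing and 16.1% of all 43128 transcripts. Without control 1, GARS1-DT alone of 23 divergent genes passed the test of transcript use (edgeR adjusted p = 0.0122), against 8.70% of all 9289 genes in that fit.

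Set beside other lncRNA names in the same fit, the 5.33% of divergent transcripts that passed compares with 7.71% of 441 antisense genes with names in -AS (23 higher, 11 lower) and 8.33% of 384 LINC genes (11 higher, 21 lower). Of 12380 protein-coding genes 16.2% passed. The median log2 fold changes were -0.029, 0.13, 0.018 and -0.049 in that order. The median levels of the tested genes of the 3 noncoding classes were 5.31, 4.18 and 3.65 CPM, and that of coding genes was 16.3 CPM. Without control 1 and knockdown 3 the shares were 9.46%, 14.2%, 15.5% and 34.3%. These differences were not tested.

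The 54 tested members that start within 200 bases of their partner had a median log2 fold change of 0.054, with 29 positive. The 20 with a wider distance had a median of -0.32, with 6 positive. Each set held 1 member that rose and 1 that fell. By their GENCODE 29 transcripts, the 19 single-exon members had a median of 0.048 and the 55 spliced ones -0.057. Members with and without an exon overlap had medians of 0.024 and -0.095. Across 74 members the log2 fold change had a Spearman's rho of -0.25 with the GC content of the GENCODE 29 transcripts, against -0.37 over 16694 genes. The distances and classes were described after the values were known.

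**Figure D5:**
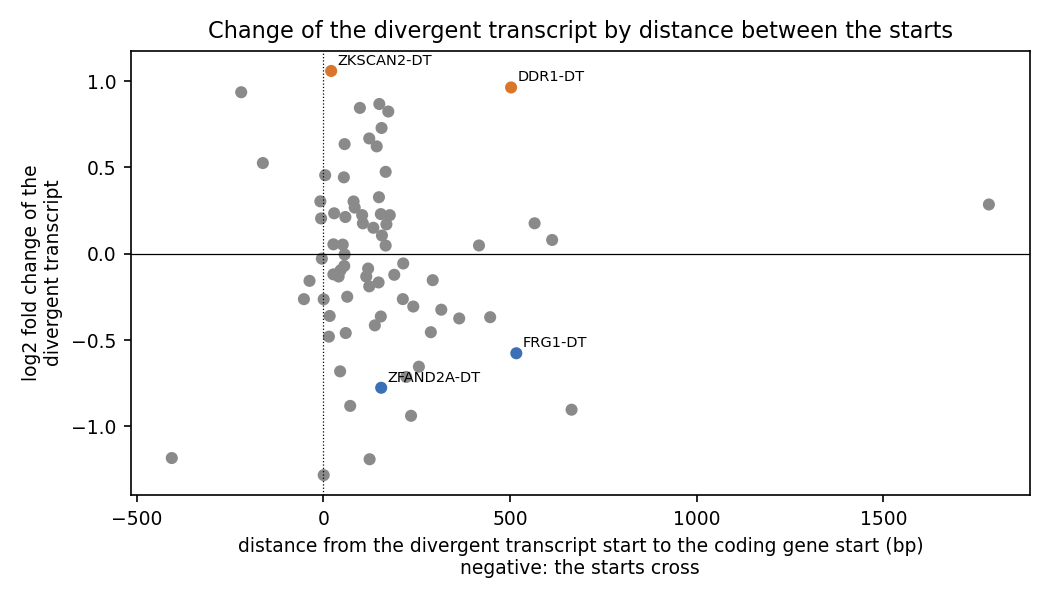
Log2 fold change of each divergent transcript (vertical) against the distance in bases from its start to the nearest start of its coding gene (horizontal, GENCODE 29; negative where the starts cross). Orange and blue points passed the test. Most points lie within 200 bases, and those beyond are more often below 0 (14 of 20).

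Genes tied to the early ending and turnover of divergent RNA were described in 5 lists. Their members need not all act in the same direction, as U1 snRNP protects RNA from early ending. Of all genes tested 5.93% rose and 7.94% fell (13.9% in all), and the small lists are read against these shares. Of 14 genes of the nuclear exosome and its cofactors, 4 rose and 0 fell (median log2 fold change 0.44, against -0.0068 for all genes). EXOSC9 rose from 19.7 ± 1.53 to 35.8 ± 4.79 CPM (0.86, SE 0.16, edgeR adjusted p = 0.0156), EXOSC3 from 17.0 ± 2.40 to 28.7 ± 4.75 (0.75, adjusted p = 0.0320) and EXOSC6 from 23.3 ± 5.21 to 41.9 ± 7.65 (0.85, adjusted p = 0.0333). All 3 encode subunits of the exosome barrel or cap, and so does EXOSC2, which also rose (0.64, edgeR adjusted p = 0.0346). The other barrel and cap genes did not pass. They were EXOSC1 (-0.054), EXOSC4 (-0.32), EXOSC5 (0.42), EXOSC7 (-0.084) and EXOSC8 (-0.27). The nuclease genes DIS3 (0.47, adjusted p = 0.0830) and EXOSC10 (0.26, adjusted p = 0.44) and the helicase gene MTREX (0.27, adjusted p = 0.54) did not pass.

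Among 10 genes of the NEXT, PAXT and cap-binding complexes, which bring the exosome to nascent RNA, ZCCHC8 rose from 15.5 ± 1.36 to 26.7 ± 2.23 CPM (0.79, SE 0.16, edgeR adjusted p = 0.0185) and none fell (list median 0.36). The list of early termination held 7 genes, which need not all promote it. In that list SCAF4 rose from 26.8 ± 3.68 to 49.2 ± 7.47 CPM (0.88, edgeR adjusted p = 0.0176) and WDR82 from 47.3 ± 4.79 to 67.1 ± 2.70 (0.50, adjusted p = 0.0472), with none lower (median 0.46). ZC3H4, the partner of WDR82 in restricting such transcripts, was at -0.26 (adjusted p = 0.35). None of 16 cleavage and polyadenylation genes passed in edgeR (5 at an unadjusted p under 0.05, 1 in DESeq2), and their median was 0.15. Of 6 genes for U1 snRNP and its associated proteins, LUC7L rose from 12.9 ± 0.82 to 25.3 ± 2.14 CPM (0.96, SE 0.16, edgeR adjusted p = 0.0107). The core U1 genes SNRNP70 (0.076), SNRPA (-0.17) and SNRPC (0.18) did not pass. The counts of the NEXT, PAXT and cap-binding list (1 of 10), the cleavage list (0 of 16) and the U1 list (1 of 6) are near or below the 13.9% of all genes.

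The counts of these lists moved with those of all genes. With transcript length offsets (5.65% of all genes) 0 exosome genes passed (edgeR, 5 at an unadjusted p under 0.05), 0 of the NEXT, PAXT and cap-binding list (3 unadjusted), 1 of early termination and 1 of the U1 list. Without control 2, control 3, knockdown 1 or knockdown 2 (2.61%, 3.58%, 1.81% and 0% of all genes), the exosome list had 0 genes past the test in each fit (edgeR, 4 or 5 unadjusted) and so had the NEXT, PAXT and cap-binding list (3 or 4 unadjusted). Early termination had 1, SCAF4, without control 3 or knockdown 3, and 0 without control 2, knockdown 1 or knockdown 2 (edgeR, 3 or 4 unadjusted). LUC7L did not pass without knockdown 2. For the exosome list 2 genes passed without knockdown 3 (5.64% of all genes), 6 without control 1 (25.3%) and 7 without control 1 and knockdown 3 together (29.8%).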

How the data were processed

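Per the file headers, the authors deposited estimated counts for every transcript, not normalized, as a quantifier gives when it divides shared reads. Beside them the authors deposited TPM, which corrects for effective length and sums alike in each library, per the file headers. FastQC 0.11.8, Trimmomatic 0.38, kallisto 0.46.1, sleuth 0.30.0 and the build GRCh38 are named, with no roles, per the submitters' processing notes. Annotation release and strand setting: not given in the sources used. Estimated counts were summed per gene and rounded. Genes past edgeR's filterByExpr were tested with edgeR 4.0.16 (R 4.3.3, TMM scaling, quasi-likelihood test, Benjamini-Hochberg over all genes tested, threshold 0.05), checked on simulated counts. DESeq2 1.42.0 and limma 3.58.1 on log2(TPM + 1) were alternatives. CPM are TMM-scaled. Depth was 5191452 to 8693977 estimated counts per library, so members near 60 summed counts have wide errors.

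The members, lists and alternatives were chosen with earlier results of these data known. The comparison with other pairs of neighbouring starts was added after seeing the data. Genes named in full are SLU7, every divergent transcript past the test, the 8 most abundant, CEBPA-DT and MAFG-DT, their partners, the 6 largest non-overlapping changes of ratio, the 3 smallest p for transcript use and up to 3 passing genes per list. INSIG1, GTSE1, LRIG2, GPR176-DT, RABGAP1L-DT and the other members named by value were chosen after their values were seen. Gene coordinates are those of GENCODE 29 (GRCh38) and promoter windows those of RefSeq (GRCh38.p14).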

Additional observations from a re-analysis of the deposited data

How the results depend on the processing

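The count of divergent transcripts past the test was 4 with DESeq2-type size factors, with a stricter filter, with no filter (where MMADHC-DT took the place of DDR1-DT) and with a minimum of 120 counts or none, and was 3 with DESeq2. It was 7 without control 1 and knockdown 3, 8 (all higher) with limma on log2(TPM + 1), where the median of all genes was shifted by 0.35, 1 with offsets for transcript length, and 2 where these also took in GC content. Leaving out single libraries gave 0 to 6. The 8 partners became 25, 14 and 2 in the first 3 of these fits and 0 to 20 over single libraries. Deviations from the group means had r of -0.41, 0.11 and -0.37 between same-numbered libraries. Deviations within a group sum to 0, so control 1 and knockdown 3 also shape the other values. Whether the replicate numbers pair the libraries therefore cannot be told from these values. With the replicate number as a block 0 divergent transcripts, 0 partners and 0 genes of any list passed in edgeR, as for all 17109 genes. In that edgeR fit 8 divergent transcripts and 18 partners had an unadjusted p under 0.05.

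Without control 1 and knockdown 3 the lists had 7 (exosome), 5 (NEXT, PAXT and cap-binding), 5 (early termination), 6 (cleavage and polyadenylation) and 3 (U1) genes past the test, where 29.8% of all genes passed. Over single libraries the ranges were 0 to 6, 0 to 3, 0 to 4, 0 to 3 and 0 to 3. The test of transcript use called 0 divergent genes over single libraries, except 1 without control 1.

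For 41 named genes and 16 alternatives, 511 of 655 values kept direction and side of the threshold, 98 no longer passed, 19 passed newly and 27 had the other sign. The sign changed with limma on log2(TPM + 1) for DDR1 (0.019), FRG1 (0.48), GARS1 (0.0062), GMDS-DT (0.42), ODC1-DT (0.28), FBXO30-DT (0.48), CEBPA-DT (0.25), MAFG-DT (0.17), PAXIP1-DT (0.048) and RABGAP1L (0.46). With GC content and length offsets it changed for ODC1-DT (0.038), CEBPA-DT (0.35), MAFG-DT (0.62) and MMADHC (-0.16), and with transcript length offsets for RAB30 (-0.063) and OSER1-DT (-0.30). Without control 1 and knockdown 3 it changed for FRG1 (0.26), GMDS-DT (0.097) and ODC1-DT (0.030). Leaving out single libraries gave ranges from -0.51 to 0.57 for FRG1 (highest without control 1, and 0.033 without knockdown 2), -0.18 to 0.022 for GMDS-DT (positive without control 1), -0.51 to 0.30 for MAFG-DT (positive without control 2), -0.035 to 0.32 for MMADHC (negative without control 1 or knockdown 1) and -0.062 to 0.36 for OSER1-DT (negative without control 3 or knockdown 3). DDR1 is the one of these that had passed the test. The cause was not tested.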
